A study of Mus musculus with 12 samples.

Results

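The 44 genes described here encode the machinery of mitosis and the spindle, the structure of microtubules that pulls the copied chromosomes apart. They were taken by mouse symbol from a list, and all 44 were found among the 49315 genes of the count table. RNA was sequenced from epididymal white adipose tissue (eWAT) of 12 male mice, with 3 mice in each of 4 groups and 1 library per mouse. KO mice (miR-181a2b2-/-) carry a systemic deletion of the locus that encodes 2 microRNAs, and flox mice (miR-181a2b2flox/flox) carry the same locus flanked by recombination sites and served as controls. Mice of every group were fed a high fat diet (HFD) with 60% of energy from fat for 12 weeks, and were injected into the abdomen each week with vehicle or with methotrexate (MTX), a folate antagonist used against inflammation, at 1 mg/kg. The groups are named flox vehicle, KO vehicle, flox MTX and KO MTX, and their age was not given. No group without the diet was analysed here. Whole tissue was used, so that all its cell types contribute to a value, and fewer cells of a type cannot be told apart from less RNA per cell.

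As background, a cell enters mitosis when cyclin B and CDK1 together form an active kinase. Kinetochores then attach each chromosome to the spindle, and the spindle checkpoint holds the anaphase promoting complex back until every chromosome is attached. That complex then marks cyclin B and securin for destruction. Separase cuts the protein link between the copied chromosomes, and the central spindle guides cytokinesis. The transcripts of most of these genes build up in G2 and mitosis under the factors FOXM1 and B-MYB, so their level in a tissue is widely read as a sign of dividing cells. Mature adipocytes do not divide, whereas macrophages, endothelial cells and stromal progenitors of obese adipose tissue can.

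Promoters of G2 and mitosis genes often hold CCAAT boxes, which bind the factor NF-Y, and a cell cycle homology region (CHR) with the letters TTTGAA or TTTAAA. These motifs are shown because they are a sequence feature that the choice of the genes did not use. RefSeq windows of 300 bases (GRCm38.p6, 250 before to 50 after the annotated start) were found for 36 of the 44 genes, in 38 windows. CCAAT was searched on both strands, TTTGAA likewise, and TTTAAA reads the same on both. CCAAT stood in 71.1% of the 38 windows and in 37.4% of all 32851 windows. At least 2 copies of it stood in 47.4% against 11.7%. TTTGAA stood in 73.7% against 17.9%, TTTAAA in 23.7% against 13.2%, and either of them in 81.6% against 27.6%. CCAAT together with a CHR stood in 68.4% of the members' windows and in 10.7% of all windows, and none of the motifs stood in 15.8% against 45.7%. A match of these letters is a description and not a binding site. Pttg1, Mad2l1, Melk, Mybl2, Nuf2 and Nusap1 held none of them. The 6 stretches below run from 220 bases before to 30 after the start, 5′ to 3′ on the strand of the gene, with each match in capitals. They belong to genes that carry the results below, and ATTGG is CCAAT on the other strand.
Cdk1 (chr10:69352883-69353132, minus strand): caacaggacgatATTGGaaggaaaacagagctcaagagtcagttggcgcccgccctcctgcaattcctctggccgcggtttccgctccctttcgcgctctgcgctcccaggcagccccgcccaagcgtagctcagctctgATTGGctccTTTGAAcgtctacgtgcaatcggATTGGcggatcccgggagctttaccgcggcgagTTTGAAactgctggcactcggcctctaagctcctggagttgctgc
Ccnb1 (chr13:100786457-100786706, minus strand): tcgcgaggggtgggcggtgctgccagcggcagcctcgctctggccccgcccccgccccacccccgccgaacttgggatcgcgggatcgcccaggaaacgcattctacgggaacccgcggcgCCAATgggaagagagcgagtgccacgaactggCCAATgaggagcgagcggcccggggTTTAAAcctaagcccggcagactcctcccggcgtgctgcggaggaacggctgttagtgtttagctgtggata
Cdc20 (chr4:118437314-118437563, minus strand): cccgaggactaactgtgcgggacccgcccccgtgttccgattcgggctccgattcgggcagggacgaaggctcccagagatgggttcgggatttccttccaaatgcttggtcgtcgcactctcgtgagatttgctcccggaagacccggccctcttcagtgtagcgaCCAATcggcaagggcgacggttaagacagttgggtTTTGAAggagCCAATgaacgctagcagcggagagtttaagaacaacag
Plk1 (chr7:122159215-122159464, plus strand): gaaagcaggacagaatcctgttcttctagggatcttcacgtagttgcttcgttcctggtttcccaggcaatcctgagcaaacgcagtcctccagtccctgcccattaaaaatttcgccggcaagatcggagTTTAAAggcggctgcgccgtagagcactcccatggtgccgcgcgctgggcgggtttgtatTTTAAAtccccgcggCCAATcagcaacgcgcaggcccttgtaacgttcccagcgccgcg
Bub1b (chr2:118597991-118598240, plus strand): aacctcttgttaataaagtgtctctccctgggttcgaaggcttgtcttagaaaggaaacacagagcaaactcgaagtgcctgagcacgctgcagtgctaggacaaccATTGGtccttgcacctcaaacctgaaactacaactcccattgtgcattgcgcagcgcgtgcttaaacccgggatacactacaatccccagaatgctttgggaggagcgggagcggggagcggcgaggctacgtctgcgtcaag
Mki67 (chr7:135716350-135716599, minus strand): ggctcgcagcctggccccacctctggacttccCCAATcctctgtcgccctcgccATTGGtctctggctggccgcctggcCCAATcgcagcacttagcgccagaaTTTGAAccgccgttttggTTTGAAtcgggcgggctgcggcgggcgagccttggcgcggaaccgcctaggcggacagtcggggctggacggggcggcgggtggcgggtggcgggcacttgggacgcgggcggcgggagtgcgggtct
Cdk1 and Mki67 held 3 CCAAT boxes and 2 copies of TTTGAA each. Ccnb1 held 2 CCAAT boxes, at 99 and 67 bases before the start, and TTTAAA at 42. Bub1b held a single CCAAT box and no CHR letters in the stretch printed.

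Each library held between 19495310 and 23976469 counts, with a median of 21824170. A count of 3, which is the most that a count of 0 allows, was 0.125 to 0.154 CPM (counts scaled to a common library size), and this limit covers counting error only. Of the microRNA precursors encoded there, Mir181a-2 and Mir181b-2, almost no reads were counted: 11 libraries had 0 counts of Mir181a-2, flox MTX replicate 4 had 2, and all 12 had 0 of Mir181b-2. The labels were therefore not checked by the targeted genes. All 11 adipocyte markers passed 3 counts in each of the 12 libraries. The 3 flox vehicle libraries also held transcripts of other organs. The summed level of 14 epididymis genes was 4555, 11930 and 1475 CPM there, 490.1 CPM in flox MTX replicate 1 and 1.22 to 20.01 CPM in the other 8 libraries. The summed level of 14 testis germ cell genes was 615, 501 and 248 CPM in the flox vehicle libraries and 13.4 to 45.4 CPM in the other 9. Some germ cells divide, so these values are given beside the results that rest on flox vehicle mice. In all 12 pairs within a group the libraries differed by more than sampling noise.

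CPM values below are scaled by TMM factors and listed in the order of the replicate numbers, which are 1, 3 and 4 for flox vehicle, 1, 2 and 3 for KO vehicle, 1, 2 and 4 for flox MTX and 2, 3 and 4 for KO MTX. All 44 genes passed the filter on low counts by group, and 43 of them had more than 3 counts in every library. Compared per kilobase of exon, Pttg1 had the highest mean level over 12 libraries at 13.7 CPM per kb, followed by Incenp at 6.73, Ccnb2 at 6.27, Ube2c at 6.14 and Mki67 at 5.02. Knl1 at 0.311 and Cdc25c at 0.255 CPM per kb were the lowest. The level summed over the 44 genes was 160, 273 and 313 CPM in flox vehicle libraries and 432, 438 and 320.1 CPM in flox MTX libraries. It was 539, 540.3 and 816 CPM in KO vehicle libraries and 856, 759 and 694 CPM in KO MTX libraries. Each of the 6 KO libraries was above each of the 6 flox libraries.

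Most of the genes varied together. Pearson's r of a gene with the mean log2 CPM of the other 43 over the 12 libraries had a median of 0.968, and it was above 0.9 for 36 genes. It was below 0.7 for 3 genes: Anln (0.505), Kif2c (0.318) and Pttg1 (-0.687). These libraries share the groups, so r is a description. The 10 other genes with the highest r with the members' mean were Kif22 (0.993), Cip2a, E2f8, Kifc1, Ska1, Stmn1, Iqgap3, Prr11, Kitl and Ncaph (0.980). Flox vehicle replicate 1 was the lowest of the 12 libraries for 40 of the 44 genes, and KO vehicle replicate 3 was the highest of its group for 41. By group means, 36 genes followed the order flox vehicle, flox MTX, KO vehicle, KO MTX from low to high, and 42 were highest in KO MTX mice.

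**Figure D1:**
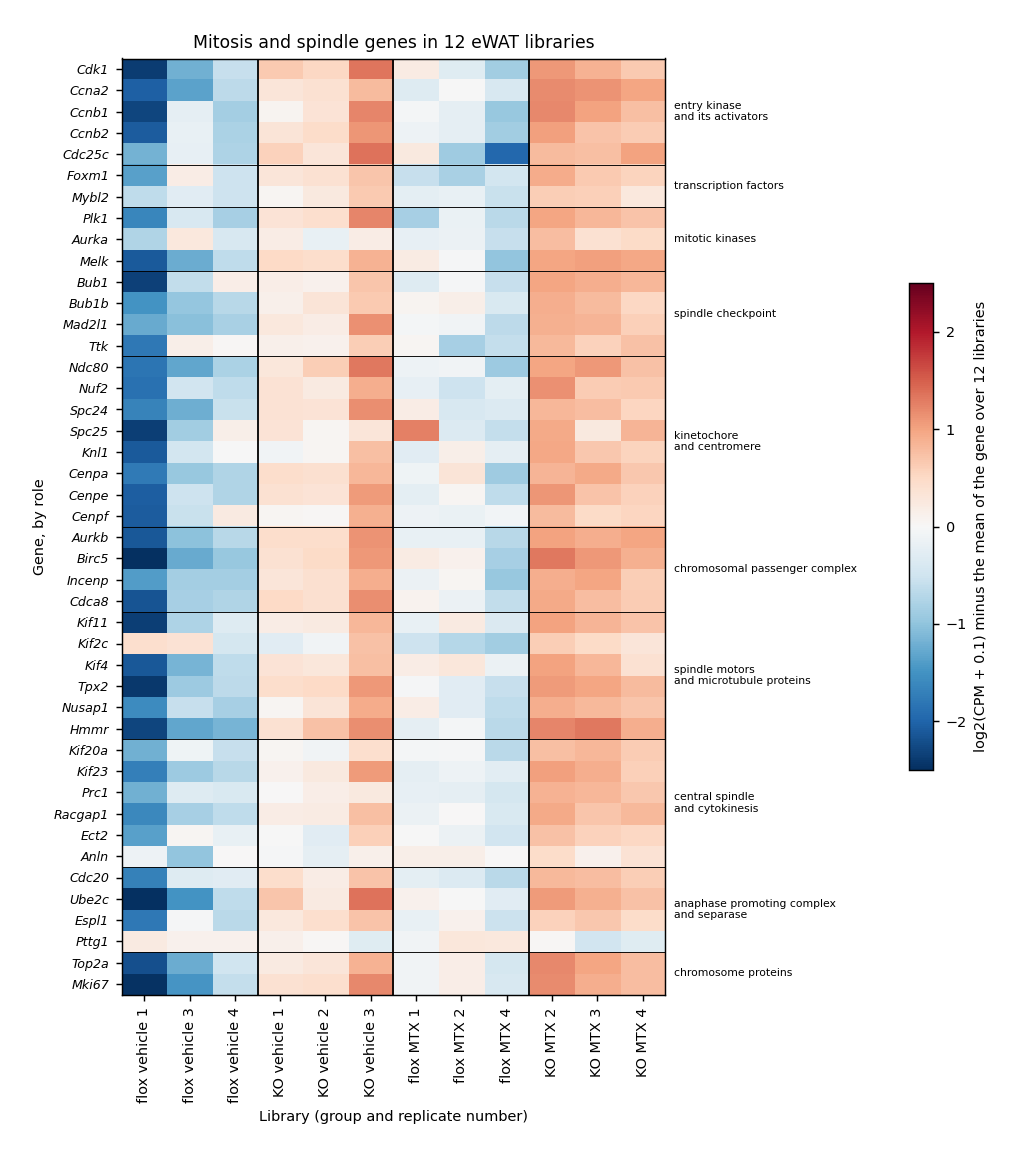
Heat map of the 44 genes (rows, by role) in the 12 libraries (columns, by group and replicate number), colored by log2(CPM + 0.1) minus the mean of the gene over the libraries. Flox vehicle replicate 1 is the bluest column, the 6 KO columns are red for most genes, and Kif2c, Anln and Pttg1 do not follow the other rows.

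The comparison of KO with flox mice under vehicle asks what the loss of the locus does to the tissue under the diet. Mitosis genes were higher in KO mice, with 34 of 44 called higher (77.3%) and none called lower. Of all 18702 genes tested, 13.9% were called higher. The median log2 fold change was 1.54 over the 44 genes and -0.06 over all genes. A gene was called where edgeR's quasi-likelihood test gave an adjusted p under 0.1 and the means differed 1.5-fold or more. The values of KO and flox mice did not overlap for 34 of the genes, compared with 22.8% of all genes that stood apart in this direction. Comparisons of 3 mice with 3 have an exact two-sided permutation p of 0.1 at the lowest, which each gene that stood apart reached.

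Among the genes for mitotic entry, all 5 were called higher in KO vehicle mice. Cdk1 (chr10:69335146-69352938), the kinase that starts mitosis, stood at 2.08, 4.80 and 7.53 CPM in flox vehicle mice and 17.6, 16.2 and 28.7 CPM in KO vehicle mice. The groups did not overlap, and the lowest KO library was well above the highest flox library (log2 fold change 2.12 ± 0.43 (SE), adjusted p = 0.00523). Ccnb1 (chr13:100778650-100786570), the cyclin that activates CDK1, stood at 1.17, 5.19 and 3.37 CPM in flox vehicle mice and 6.40, 7.79 and 14.4 CPM in KO vehicle mice. Flox replicate 3 came close to KO replicate 1, so the groups stood apart by little (log2 fold change 1.55 ± 0.48 (SE), adjusted p = 0.0328). Without KO vehicle replicate 3 the call of Ccnb1 was lost (log2 fold change 1.14, adjusted p = 0.139). Ccna2, cyclin A2, and Ccnb2, cyclin B2, rose with log2 fold changes of 1.77 and 1.52. Cdc25c (chr18:34732993-34751533), a phosphatase that activates CDK1, had a log2 fold change of 1.61 ± 0.56 (SE) on low counts.

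Both transcription factors were called higher, with a median log2 fold change of 0.87. Foxm1 (chr6:128362967-128376146) stood at 3.47, 10.4 and 6.33 CPM in flox vehicle mice and 11.3, 11.9 and 14.9 CPM in KO vehicle mice. Flox replicate 3 reached nearly the level of the lowest KO library (log2 fold change 0.91 ± 0.32 (SE), adjusted p = 0.0542). With only the 6 libraries of the comparison the adjusted p was 0.115. Leaving out flox vehicle replicate 1, flox vehicle replicate 4 or KO vehicle replicate 3 ended its call too, with log2 fold changes of 0.60, 0.88 and 0.79 and adjusted p of 0.119, 0.106 and 0.160. Foxm1 shares an exon on its own strand with Tex52 and Gm44596. Mybl2, the gene of B-MYB, had a log2 fold change of 0.83 ± 0.25 (SE, adjusted p = 0.0273).

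Of the 3 mitotic kinases, 2 were called higher. Plk1 (chr7:122159439-122169873), polo-like kinase 1, stood at 1.87, 4.52 and 3.32 CPM in flox vehicle mice and 7.56, 8.05 and 14.1 CPM in KO vehicle mice. Its lowest KO library was above its highest flox library (log2 fold change 1.61 ± 0.35 (SE), adjusted p = 0.00695). Melk rose with a log2 fold change of 1.87. Aurka, the kinase of the centrosomes and spindle poles, was not called, with a log2 fold change of 0.31 ± 0.27 (SE, adjusted p = 0.418). It stood at 4.30, 8.73 and 5.49 CPM in flox vehicle mice and 8.31, 6.35 and 8.29 CPM in KO vehicle mice, and flox replicate 3 was the highest of the 6 libraries.

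The spindle checkpoint split, with Bub1b and Mad2l1 called higher and Bub1 and Ttk not. Bub1b (chr2:118598211-118641591), the gene of the checkpoint protein BUBR1, stood at 3.69, 5.35 and 6.51 CPM in flox vehicle mice and 11.6, 13.3 and 16.7 CPM in KO vehicle mice. The groups were far apart against their spread (log2 fold change 1.42 ± 0.25 (SE), adjusted p = 0.00356). Mad2l1 had a log2 fold change of 1.64 ± 0.28 (SE). Bub1 and Ttk, both checkpoint kinases, had log2 fold changes of 0.99 ± 0.49 and 0.64 ± 0.46 (SE), with adjusted p of 0.151 and 0.323.

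Kinetochore and centromere genes were called higher in 5 of 8 cases. Ndc80 (chr17:71496100-71526857), the microtubule-binding subunit of the outer kinetochore, stood at 1.48, 2.16 and 3.09 CPM in flox vehicle mice and 6.65, 8.43 and 13.8 CPM in KO vehicle mice. Every KO library was above every flox library (log2 fold change 2.10 ± 0.36 (SE), adjusted p = 0.00349). Cenpa (chr5:30666777-30674830), the histone that marks centromeres, stood at 4.12, 7.36 and 8.40 CPM in flox vehicle mice and 19.4, 18.7 and 25.2 CPM in KO vehicle mice. The 3 KO libraries were all above the flox libraries (log2 fold change 1.67 ± 0.32 (SE), adjusted p = 0.00456). Nuf2 and Spc24, partners of NDC80, and Cenpe, a kinetochore motor, were called higher as well. Spc25, Knl1 and Cenpf had log2 fold changes of 0.94, 0.94 and 0.92 and adjusted p of 0.251, 0.156 and 0.148.

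The chromosomal passenger complex, which corrects faulty attachments, rose in all 4 subunits. Aurkb (chr11:69045647-69051664), its kinase, stood at 1.61, 3.54 and 4.43 CPM in flox vehicle mice and 9.93, 9.91 and 15.9 CPM in KO vehicle mice. The highest flox library was below the KO libraries by a wide margin (log2 fold change 1.90 ± 0.34 (SE), adjusted p = 0.00392). Birc5 (chr11:117849251-117855743), survivin, stood at 1.69, 4.17 and 5.22 CPM in flox vehicle mice and 13.3, 14.2 and 21.6 CPM in KO vehicle mice. It also stood apart (log2 fold change 2.15 ± 0.40 (SE), adjusted p = 0.00432). Incenp, the scaffold, and Cdca8, borealin, had log2 fold changes of 1.57 and 1.88.

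Spindle motors and microtubule proteins were called higher in 5 of 6 cases. Hmmr (chr11:40701395-40733422), which holds spindle poles together, had the largest change of the 44 genes. It stood at 0.868, 1.85 and 2.03 CPM in flox vehicle mice and 6.10, 7.88 and 10.6 CPM in KO vehicle mice. Its KO libraries were far above its flox libraries (log2 fold change 2.37 ± 0.35 (SE), adjusted p = 0.00284). Kif11 (chr19:37376403-37421859), the motor that separates the spindle poles, stood at 1.52, 4.76 and 6.56 CPM in flox vehicle mice and 9.32, 9.57 and 14.6 CPM in KO vehicle mice. The KO libraries were above the flox libraries, which spread widely among themselves (log2 fold change 1.38 ± 0.42 (SE), adjusted p = 0.0290). Its adjusted p was 0.107 without KO vehicle replicate 3. Tpx2, Kif4 and Nusap1 rose with log2 fold changes of 1.86, 1.72 and 1.43.

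Genes of the central spindle and of cytokinesis were called higher in 4 of 6 cases, with a median log2 fold change of 0.73. Prc1 (chr7:80294450-80316259), which bundles the microtubules of the central spindle, stood at 3.82, 7.16 and 6.88 CPM in flox vehicle mice and 8.97, 10.04 and 10.6 CPM in KO vehicle mice. The groups stood apart with a small gap (log2 fold change 0.73 ± 0.23 (SE), adjusted p = 0.0340). Without flox vehicle replicate 1 the change was 0.50 on the log2 scale and fell under the fold limit, and without KO vehicle replicate 3 the adjusted p was 0.1004. Kif23 and Racgap1, which form the centralspindlin complex, and Kif20a had log2 fold changes of 1.60, 1.38 and 0.72. Ect2 and Anln, which act on the contractile ring, had 0.54 ± 0.36 and 0.27 ± 0.23 (SE) and were not called.

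Of the genes for exit from mitosis, Cdc20, Ube2c and Espl1 were called higher and Pttg1 was not. Cdc20 (chr4:118432901-118437352), which activates the anaphase promoting complex, stood at 2.08, 5.55 and 5.68 CPM in flox vehicle mice and 9.42, 7.92 and 11.4 CPM in KO vehicle mice. Flox replicates 3 and 4 were alike and below the KO libraries (log2 fold change 1.11 ± 0.33 (SE), adjusted p = 0.0270). Ube2c (chr2:164769898-164778822), the ubiquitin-conjugating enzyme that works with that complex, stood at 1.95, 4.45 and 8.13 CPM in flox vehicle mice and 20.8, 14.9 and 32.9 CPM in KO vehicle mice. Its groups stood apart (log2 fold change 2.24 ± 0.43 (SE), adjusted p = 0.00466). Pttg1 (chr11:43420250-43426251), the gene of securin, stood at 31.4, 29.3 and 29.1 CPM in flox vehicle mice and 29.4, 27.5 and 21.7 CPM in KO vehicle mice. Its groups overlapped, and it was the only one of the 44 with a change below 0 (log2 fold change -0.19 ± 0.17 (SE), adjusted p = 0.424).

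Both chromosome proteins were called higher. Top2a (chr11:98992943-99024189), the enzyme that untangles DNA, stood at 6.51, 12.6 and 21.2 CPM in flox vehicle mice and 35.0, 37.0 and 54.8 CPM in KO vehicle mice. The lowest KO library was above the highest flox library (log2 fold change 1.65 ± 0.36 (SE), adjusted p = 0.00651). Mki67 (chr7:135689784-135716361), the gene of the proliferation marker Ki-67, stood at 7.33, 14.6 and 26.9 CPM in flox vehicle mice and 53.2, 54.9 and 94.2 CPM in KO vehicle mice. Flox replicates differed widely among themselves and still stayed below the KO libraries (log2 fold change 2.05 ± 0.40 (SE), adjusted p = 0.00472).

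The count of 34 lay between 26 and 35 when each of the 12 libraries was left out in turn. The share of all genes called higher was then 9.89% to 14.8%. A block for the replicate number gave 32, against 11.1% of all genes. Markers of other cells moved with the same comparison. All 20 macrophage markers were called higher in KO vehicle mice (median log2 fold change 2.90), as were 9 of 10 endothelium markers (1.14) and 8 of 10 stromal progenitor markers (1.49), with 1 stromal marker lower. Of 11 adipocyte markers 3 were called lower. Of 14 testis germ cell markers, 13 were called lower, and of 10 epididymis markers tested, 7 were. The part of these markers in the changes of the mitosis genes was not tested. Of the 44 genes, 12 share an exon with another gene, 10 of them on the opposite strand and 2 on the same strand, and the strand setting of the counting is not stated. All 12 were called higher in KO vehicle mice, as were 22 of the 32 that share none.

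**Figure D2:**
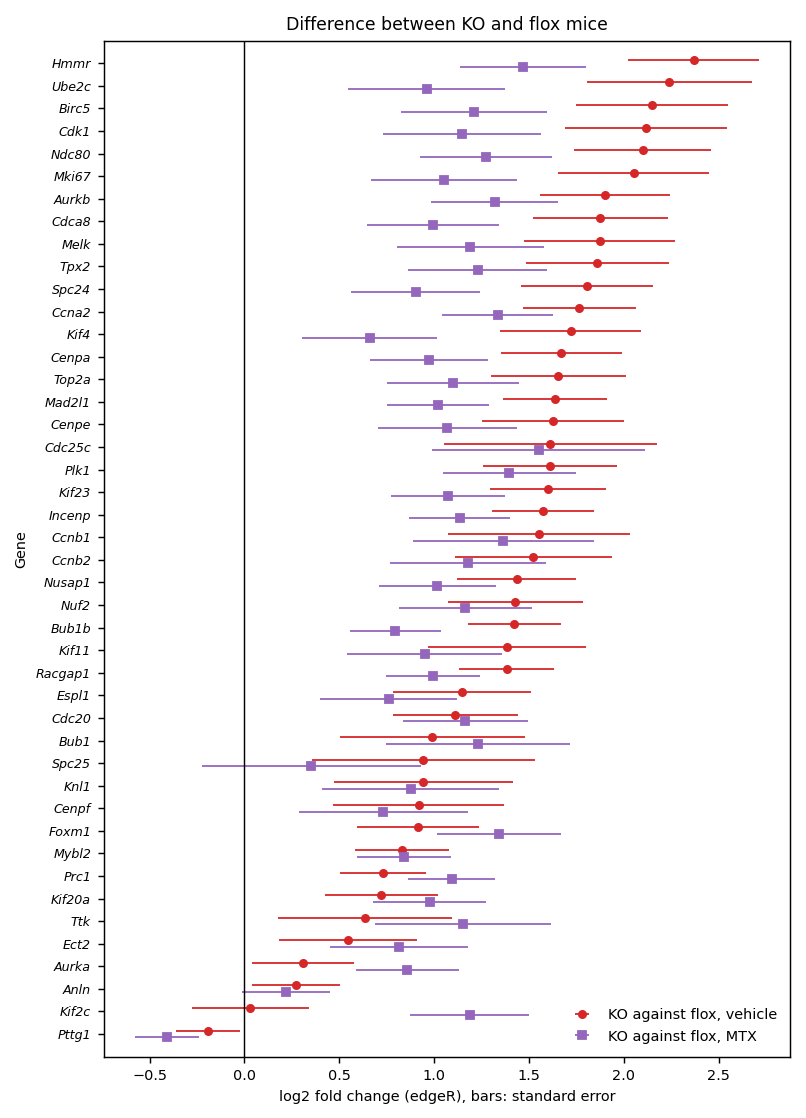
Log2 fold change of KO against flox mice for each of the 44 genes, under vehicle (red circles) and under MTX (purple squares), with the standard error as bars. The genes run from Pttg1 at -0.19 to Hmmr at 2.37 under vehicle, and all but Pttg1 lie above 0 in both comparisons.

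The comparison of KO with flox mice under MTX does not use the flox vehicle libraries for its means. No gene of the 44 was called, and 0.0% of all genes were, because the smallest adjusted p of the whole table was 0.104, which 561 genes shared. At an unadjusted p below 0.05, 37 of the 44 genes (84.1%) were higher and 1 was lower, against 11.5% of all genes that were higher. The groups did not overlap for 41 genes, against 14.7% of all genes. The median log2 fold change was 1.07, against -0.05 over all genes. DESeq2 called 34 of the 44 genes higher in this comparison, and 7.99% of all genes. With at least 10 counts required in every library edgeR called 24 of the 44 and 5.13% of all genes, and with no filter 14 and 1.40%. Leaving out flox MTX replicate 2 gave 26 of the 44 and 10.6% of all genes, and leaving out flox vehicle replicate 3 gave 18 and 2.84%.

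Values under MTX were as follows. Cdk1 stood at 13.0, 9.04 and 6.07 CPM in flox MTX mice and 23.8, 20.7 and 17.8 CPM in KO MTX mice, with no overlap (log2 fold change 1.15 ± 0.41 (SE), adjusted p = 0.139). Ccnb1 stood at 5.91, 5.23 and 3.13 CPM in flox MTX mice and 14.2, 12.3 and 10.3 CPM in KO MTX mice, also apart (log2 fold change 1.36 ± 0.48 (SE), adjusted p = 0.130). Foxm1 stood at 6.05, 5.18 and 6.63 CPM in flox MTX mice and 17.3, 14.5 and 13.4 CPM in KO MTX mice. The flox values of Foxm1 were here all far below the lowest KO value (log2 fold change 1.34 ± 0.33 (SE), adjusted p = 0.104). Plk1 stood at 3.31, 5.32 and 3.69 CPM in flox MTX mice and 12.0, 10.7 and 9.83 CPM in KO MTX mice, and Bub1b at 11.1, 11.7 and 8.07 CPM in flox MTX mice and 19.9, 18.4 and 15.2 CPM in KO MTX mice. The log2 fold changes were 1.40 ± 0.35 for Plk1 and 0.80 ± 0.24 (SE) for Bub1b. Ndc80 stood at 5.01, 5.14 and 2.88 CPM in flox MTX mice and 10.8, 11.7 and 9.09 CPM in KO MTX mice. Cenpa stood at 13.3, 17.8 and 7.63 CPM in flox MTX mice and 25.6, 27.6 and 22.8 CPM in KO MTX mice. Both stood apart, with log2 fold changes of 1.27 ± 0.35 and 0.97 ± 0.31 (SE).

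Aurkb stood at 6.42, 6.36 and 4.44 CPM in flox MTX mice and 14.7, 13.8 and 14.6 CPM in KO MTX mice, and the 3 KO values lay close together (log2 fold change 1.32 ± 0.33 (SE), adjusted p = 0.104). Kif11 stood at 7.18, 9.59 and 6.38 CPM in flox MTX mice and 16.6, 14.8 and 13.4 CPM in KO MTX mice. Prc1 stood at 7.75, 7.63 and 6.57 CPM in flox MTX mice and 16.5, 15.9 and 14.4 CPM in KO MTX mice, and the KO values lay close together and well above the flox values (log2 fold change 1.09 ± 0.23 (SE), adjusted p = 0.104). Cdc20 stood at 5.81, 5.45 and 4.31 CPM in flox MTX mice and 12.3, 11.9 and 10.8 CPM in KO MTX mice. Top2a stood at 28.3, 33.6 and 22.1 CPM in flox MTX mice and 69.2, 59.8 and 51.3 CPM in KO MTX mice, and Mki67 at 38.5, 46.1 and 30.9 CPM in flox MTX mice and 92.8, 76.7 and 70.2 CPM in KO MTX mice. None of these groups overlapped. The log2 fold changes were 0.95 ± 0.41 for Kif11, 1.16 ± 0.33 for Cdc20, 1.10 ± 0.35 for Top2a and 1.05 ± 0.39 (SE) for Mki67.

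Hmmr stood at 3.97, 4.54 and 2.88 CPM in flox MTX mice and 11.1, 11.7 and 8.83 CPM in KO MTX mice under MTX, with a log2 fold change of 1.47 ± 0.33 (SE). The largest change was that of Cdc25c, at 1.55 ± 0.56 (SE). It stood at 1.23, 0.4999 and 0.188 CPM in flox MTX mice and 1.83, 1.78 and 2.14 CPM in KO MTX mice, and flox replicate 4 was at the 3-count limit. Pttg1, at 25.5, 33.1 and 32.6 CPM in flox MTX mice and 27.6, 19.3 and 21.8 CPM in KO MTX mice, was again the only gene below 0 (log2 fold change -0.41 ± 0.17 (SE), adjusted p = 0.176), and its groups overlapped. Of the 20 macrophage markers, 16 were higher at an unadjusted p below 0.05 (median log2 fold change 1.40), and of 10 endothelium markers 4 were (0.61). Of 11 adipocyte markers, 8 were lower at that p. Testis germ cell markers were at 13.4 to 45.4 CPM in both of these groups.

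Averaged over both treatments, with all 12 libraries, KO mice had 40 of the 44 genes called higher (90.9%) and none lower, against 12.5% of all genes called higher. The median log2 fold change was 1.31 over the 44 genes and -0.08 over all genes. Hmmr had the largest change (1.92 ± 0.24 (SE), adjusted p = 0.00227). The 4 genes not called were Anln (log2 fold change 0.24, adjusted p = 0.272), Spc25 (0.65, adjusted p = 0.247), Aurka (0.58, adjusted p = 0.0379, just under the fold limit) and Pttg1 (-0.30, adjusted p = 0.0772). The count lay between 35 and 41 when each library was left out, with 10.5% to 15.0% of all genes called higher. All 6 KO libraries were above all 6 flox libraries for 30 genes, compared with 4.87% of all genes. These 30 hold all 5 entry genes, both transcription factors, the 4 passenger complex subunits and both chromosome proteins.

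MTX was next compared with vehicle in flox mice, which asks what the drug does where the locus is intact. Of the 44 genes, 17 were called higher with MTX (38.6%) against 8.09% of all genes, and 1, Kif2c, was called lower against 16.1% of all genes. The median log2 fold change was 0.74, and 0.05 over all genes. The groups did not overlap, with MTX higher, for 16 genes, against 10.9% of all genes. The called genes were 3 of 4 passenger complex subunits, both chromosome proteins, 3 of 8 kinetochore genes, 2 of 6 motors, 2 of 6 cytokinesis genes, 2 of 4 checkpoint genes, and Ccna2, Melk and Ube2c.

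Birc5 had the largest rise. It stood at 1.69, 4.17 and 5.22 CPM with vehicle and 11.8, 11.04 and 5.69 CPM with MTX, and replicate 4 of the MTX group barely exceeded the highest vehicle library (log2 fold change 1.37 ± 0.40 (SE), adjusted p = 0.0348). Mki67, whose values are given above, rose as well (log2 fold change 1.24 ± 0.39 (SE), adjusted p = 0.0473), and so did Top2a and Bub1b with log2 fold changes of 1.06 and 0.99. Cdk1, Aurkb and Kif11 had log2 fold changes of 0.97, 0.85 and 0.85 and adjusted p of 0.130, 0.102 and 0.171. Ccnb1, Plk1, Cdc20 and Prc1 had 0.55, 0.34, 0.23 and 0.30, none near the limit, and Foxm1 had -0.18.

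This count rested on single libraries and settings. Leaving out flox vehicle replicate 1, 3 or 4 gave 7, 5 or 24, and leaving out flox MTX replicate 1 or 2 gave 8 or 9. Scaling by library size alone gave 7, a block for the replicate number gave 10, and the count was 0 when only the 6 libraries of the comparison were fitted. The shares of all genes called higher were 4.92%, 2.03% and 11.3% without flox vehicle replicates 1, 3 and 4, 7.11% and 6.42% without flox MTX replicates 1 and 2, and 4.10%, 3.06% and 1.5% under the other 3 settings. Macrophage markers moved with it, with 18 of 20 called higher (median log2 fold change 2.01), as did 6 of 9 B cell markers (2.61), 7 of 10 T and NK cell markers (1.88) and 7 of 8 mesothelium markers (1.78). Testis germ cell markers (13 of 14) and epididymis markers (7 of 10 tested) were called lower. The part of any of these in the changes was not tested.

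In KO mice, MTX was followed by no called change. None of the 44 genes was called, as 0.0% of all genes were, and 1 gene, Prc1, was higher at an unadjusted p below 0.05, against 3.42% of all genes. The median log2 fold change was 0.29, and -0.01 over all genes. DESeq2 called none of the 44 either, while it called 0.27% of all genes higher and 1.14% lower. The KO MTX libraries were above the KO vehicle libraries without overlap for 6 genes (Bub1, Aurka, Ccna2, Melk, Prc1 and Kif20a), which is 13.6% of them, against 11.1% of all genes. Prc1 stood at 8.97, 10.04 and 10.6 CPM with vehicle and 16.5, 15.9 and 14.4 CPM with MTX, with a log2 fold change of 0.66 ± 0.23 (SE, adjusted p = 0.455). Pttg1 had the lowest value (-0.19 ± 0.17), and Cdk1 lay at -0.00 ± 0.41 (SE).

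The interaction, the difference between the effects of MTX in KO and in flox mice, was called for none of the 44 genes, against 0.989% of all genes. At an unadjusted p below 0.05 there was 1 gene of the 44, Kif2c, against 15.0% of all genes. The median was -0.42 on the log2 scale, with 34 genes below 0 and 10 above. Ube2c had the lowest value (-1.28 ± 0.59 (SE), adjusted p = 0.336), and its levels under MTX were 13.7, 12.6 and 10.5 CPM in flox MTX mice and 26.9, 23.6 and 21.2 CPM in KO MTX mice. Without flox vehicle replicate 4, 1 of the 44 genes was called above 0 and 2 below, against 5.46% and 1.60% of all genes. With all 12 libraries the effects of MTX in flox and in KO mice were therefore not shown to differ for any of the genes. Of the 14 testis germ cell markers, 11 were called in this comparison.

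**Figure D3:**
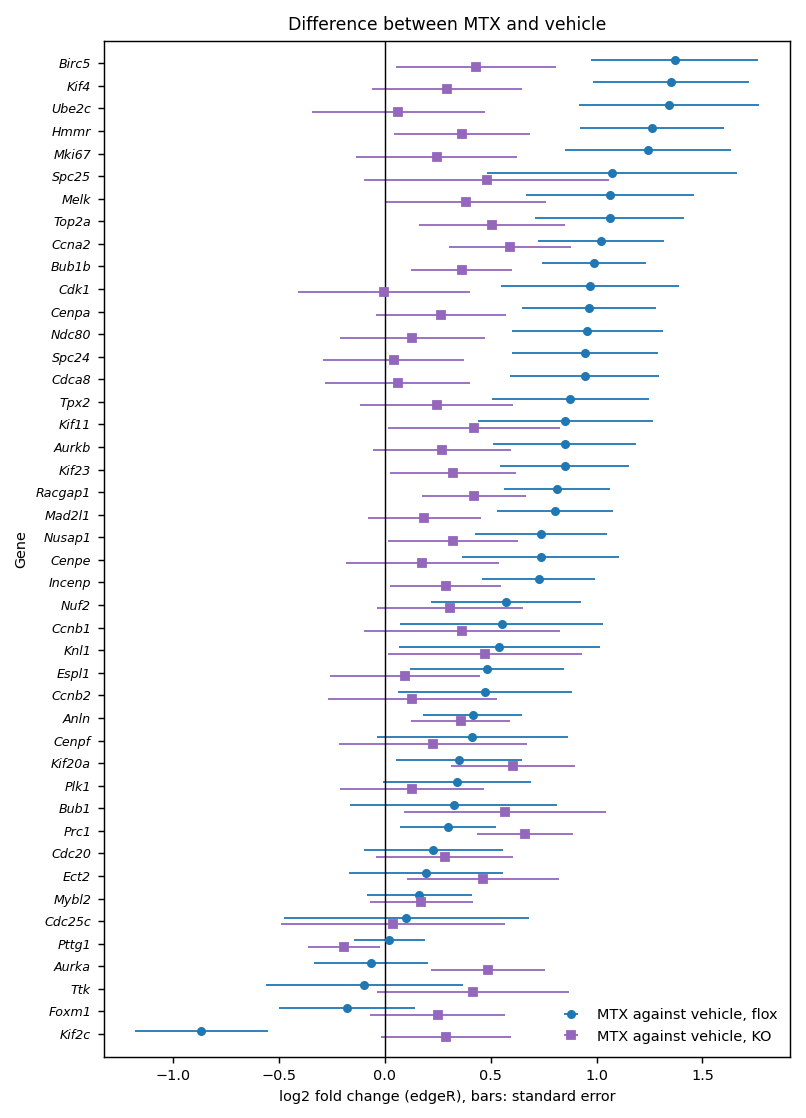
Log2 fold change of MTX against vehicle for each of the 44 genes, in flox mice (blue circles) and in KO mice (purple squares), with the standard error as bars. In flox mice the genes run from Kif2c at -0.87 to Birc5 at 1.37, and in KO mice from Pttg1 at -0.19 to Prc1 at 0.66.

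Kif2c, Anln and Pttg1 departed from the other genes. Kif2c (chr4:117159639-117182639), the kinesin that takes microtubules apart at kinetochores, stood at 7.64, 7.32 and 4.20 CPM in flox vehicle mice and 4.69, 5.38 and 9.51 CPM in KO vehicle mice. Flox replicates 1 and 3, which had the most epididymis and germ cell transcripts, were above KO replicates 1 and 2 (log2 fold change 0.03 ± 0.31 (SE), adjusted p = 0.953). Under MTX it stood at 3.97, 3.45 and 3.06 CPM in flox MTX mice and 8.83, 8.02 and 7.08 CPM in KO MTX mice, and the groups stood apart as for the other motors (log2 fold change 1.19 ± 0.31 (SE), adjusted p = 0.104). In flox mice it was called lower with MTX (log2 fold change -0.87 ± 0.31 (SE), adjusted p = 0.0754), and its interaction was 1.16 ± 0.44 (SE, adjusted p = 0.257). The kinase Haspin, which is not among the 44, stood at 4.90, 20.2 and 7.11 CPM in flox vehicle libraries and at 1.81 to 4.78 CPM in the other 9. Whether transcripts from germ cells make up part of Kif2c or Haspin in flox vehicle mice was not tested.

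Anln, anillin, stood at 14.5, 7.87 and 15.8 CPM in flox vehicle mice and 15.4, 13.5 and 17.2 CPM in KO vehicle mice. Apart from flox replicate 3 all these values lay within 13.5 to 17.2 CPM. Under MTX it stood at 17.4, 17.4 and 15.9 CPM in flox MTX mice and 21.8, 16.9 and 20.3 CPM in KO MTX mice. No comparison against all counts called it. Pttg1 was the most abundant of the 44 per length in all 4 groups, and its group means lay between 22.9 and 30.4 CPM. The levels of Pttg1 were lowest in KO MTX mice, where 42 of the other genes were highest.

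**Figure D4:**
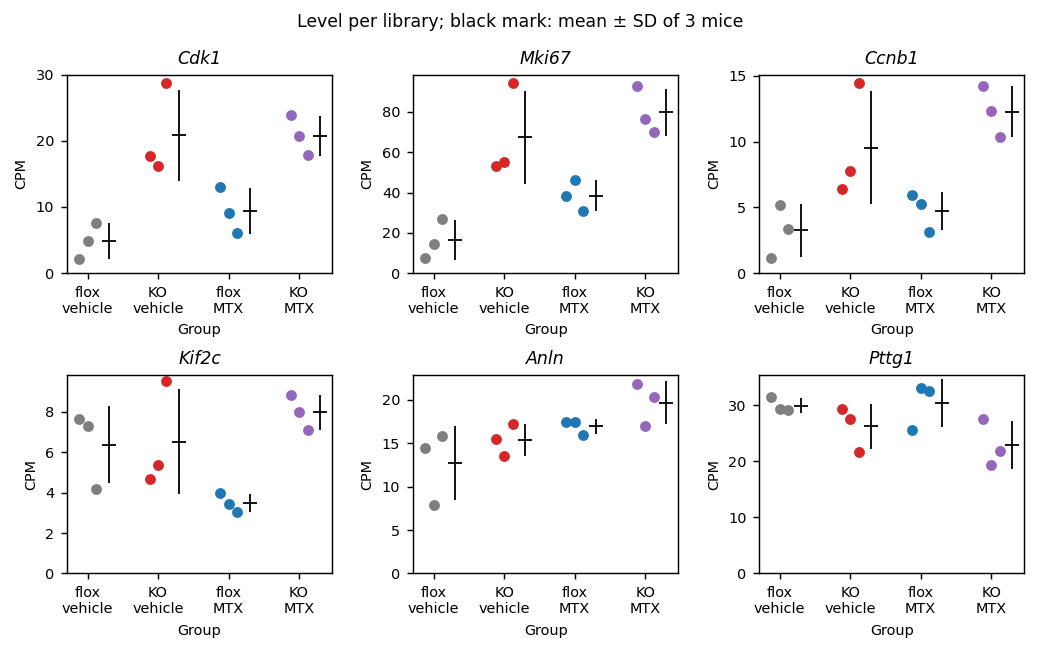
CPM of 6 of the genes in each library, by group, with the mean and the SD of 3 mice in black and axes from 0. Cdk1, Mki67 and Ccnb1 have their lowest group mean in flox vehicle mice, as does Anln, which no comparison against all counts called. Kif2c is lowest in flox MTX mice and Pttg1 in KO MTX mice.

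The genes were then set against macrophage genes, since macrophages gather in adipose tissue under the diet and can divide there. The level summed over 20 macrophage markers was 1297, 906 and 1682 CPM in flox vehicle libraries and 7417, 8353 and 14150 CPM in KO vehicle libraries. It was 4625, 8330 and 1383 CPM in flox MTX libraries and 12360, 16760 and 10110 CPM in KO MTX libraries. Flox MTX replicate 4 was thus as low as the flox vehicle libraries. For each 1000 CPM of macrophage markers there were 123, 301 and 186 CPM of the mitosis genes in flox vehicle libraries and 72.7, 64.7 and 57.7 CPM in KO vehicle libraries. With MTX there were 93.4, 52.6 and 232 CPM in flox and 69.3, 45.3 and 68.6 CPM in KO libraries. The ratio was lower in every KO vehicle library than in every flox vehicle library, and overlapped between flox and KO mice under MTX.

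**Figure D5:**
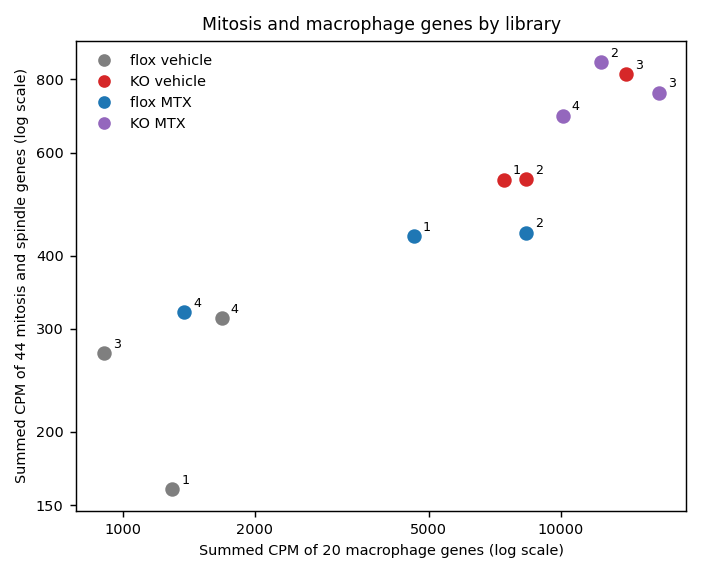
Summed CPM of the 44 mitosis and spindle genes against the summed CPM of 20 macrophage genes, both on log axes, with 1 point per library, colored by group and numbered by replicate. Flox vehicle libraries sit at the lower left and the KO libraries at the upper right, with flox MTX replicate 4 beside the flox vehicle libraries.

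With the macrophage level of each library as an offset in the fit, 31 of the 44 genes were called lower in KO vehicle mice and none higher (70.5%). Of all genes, 94.6% were called lower in the same fit. The median was -1.45 for the 44 genes and -2.86 for all genes. The 13 not called lower were led by Hmmr (-0.52 ± 0.69 (SE), adjusted p = 0.468) and Ube2c (-0.59 ± 0.69 (SE), adjusted p = 0.408). The 4 genes farthest below were Pttg1 (-2.96), Kif2c (-2.94), Aurka (-2.60) and Anln (-2.46), which were also among the genes that rose least against all counts. Under MTX 6 genes (13.6%) were called lower against 82.0% of all genes, with medians of -0.97 and -2.16. Averaged over treatments 37 (84.1%) were, against 95.1% of all genes, with medians of -1.22 and -2.56. At an unadjusted p below 0.05 in this fit, fewer of the 44 were lower: 23 under vehicle, 2 under MTX and 31 averaged. The share of all genes at that p was not counted, so these counts cannot be set against it. With MTX in flox mice 1 gene, Kif2c, was called lower on this scale (2.27%), against 23.75% of all genes. The median was -0.57 against -1.08 over all genes.

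These counts moved with the way the macrophage level entered. With it as a covariate, the scale stayed that of all counts and the fit chose the slope, so fold changes are not ratios to macrophage genes. None of the 44 genes was then called in any comparison. That fit called 0.0% of all genes in the KO comparisons, and 0.064% higher and 0.58% lower with MTX in flox mice. The medians of the KO comparisons were 0.73 under vehicle, 0.58 under MTX and 0.72 averaged, against 1.54, 1.07 and 1.31 without the covariate. Over all genes they were -0.03, -0.02 and -0.02 with it. With an offset from only Adgre1, Csf1r, Mertk, Fcgr1 and Cd68 the count under vehicle was 20. A block for the replicate number gave 10. Without flox vehicle replicate 3, whose macrophage level was the lowest, it was 13, and it was 20, 19 and 18 without KO vehicle replicates 1, 2 and 3. Leaving out these KO vehicle libraries in turn, 92.1%, 91.7% and 89.5% of all genes were called lower. Under MTX the count was 31 without flox MTX replicate 2, 1 without flox MTX replicate 4 and 2, 2 and 3 without KO MTX replicates 2, 3 and 4. With the KO MTX libraries left out in that order, 68.35%, 64.5% and 74.8% of all genes were called lower. The median under MTX was -0.11 without flox MTX replicate 4. For MTX in flox mice the count was 37 without flox MTX replicate 4, against 91.4% of all genes.

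Genes of S phase, when DNA is copied, were compared as another sign of the cell cycle. Of 14 such genes, 9 were called higher in KO vehicle mice (median log2 fold change 0.89), led by Cdt1, a licensing factor (2.34). Averaged over treatments 10 were, and 3 were with MTX in flox mice. For each 100 CPM of S phase genes there were 98.2, 136 and 152 CPM of the mitosis genes in flox vehicle libraries and 161, 163 and 176 CPM in KO vehicle libraries. The KO values lay above the flox values. With MTX there were 170.0, 143 and 162 CPM in flox and 172, 156 and 178 CPM in KO libraries, and these overlapped. For each 1000 CPM of stromal progenitor markers there were 54.7, 129.5 and 77.3 CPM in flox vehicle libraries and 78.4, 73.9 and 80.5 CPM in KO vehicle libraries, which overlapped. With MTX there were 67.4, 74.7 and 71.5 CPM in flox and 106, 90.9 and 96.6 CPM in KO libraries, which stood apart. For each 100 CPM of endothelium markers there were 38.1, 44.6 and 54.9 CPM of the mitosis genes in flox vehicle libraries and 45.9, 40.2 and 90.9 CPM in KO vehicle libraries. With MTX there were 48.8, 107 and 55.6 CPM in flox and 86.9, 128.5 and 65.0 CPM in KO libraries. The ratio to endothelium markers overlapped between flox and KO mice under both treatments.

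A further 100 mitotic genes were counted to see how far the pattern reached. In KO vehicle mice 44 of them were called higher and 2 lower, with a median log2 fold change of 0.63. A list of 16 held subunits of the anaphase promoting complex, its coactivator Fzr1 and the enzyme Ube2s. Without these 16, 44 of 84 were higher and the median was 0.88. Among those 16 genes none was called (median -0.02), with values from Anapc13 (-0.53) and Cdc27 (-0.37) to Anapc15 (0.45) and Anapc11 (0.56). Averaged over treatments 52 of the 100 were called higher and 1, Anapc13, lower (-0.61 ± 0.13 (SE), adjusted p = 0.00587). Under MTX none was called and 45 were higher at an unadjusted p below 0.05, against 11.5% of all genes.

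Of 23 other spindle and cytokinesis genes, 16 were called higher in KO vehicle mice, led by Troap (2.17) and Dlgap5 (2.16), a spindle assembly factor, while Ckap5 (-0.03) and Arhgap11a (0.23) were not called. Condensin, which compacts chromosomes, had 5 of 8 subunits called higher, with Ncaph (1.74) and Smc2 (1.32) at the top and Ncapd3 (-0.45) and Ncaph2 (-0.19) at the bottom. Of the 19 inner kinetochore genes 8 were called higher, among them Cenpi (2.11), while Cenpu (-0.24) and Cenpt (-0.20) were the lowest. Of 16 outer kinetochore and checkpoint genes 6 were higher, led by Spdl1 (1.84) and Ska3 (1.58). Zwint was called lower there (-0.59 ± 0.21 (SE), adjusted p = 0.0607), and Zw10 had -0.16. Of 18 other kinases and regulators 9 were higher, with Pimreg (2.33) and Mastl (1.79) the highest. Haspin was called lower (-1.48 ± 0.44 (SE), adjusted p = 0.0264), and Nek2 had -0.25. With MTX in flox mice 13 of the 100 were called higher and 2 lower, the latter being Haspin (-2.48) and Cenpt (-0.999). In KO mice MTX was followed by no call among the 100, and the interaction had none. At an unadjusted p below 0.05, 4 were higher with MTX in KO mice, against 3.42% of all genes. For the interaction 11 were higher or lower at that p, against 15.0% of all genes.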

How the data were processed

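RNA-seq libraries of eWAT from 12 mice, 3 per group, were analysed from the deposited table of raw counts per gene. Per the labels and the methods, the authors trimmed reads with Trimmomatic 0.36, aligned them to mm10 (GRCm38) with STAR 2.5.2b and counted them with featureCounts of Subread 1.5.2 on Ensembl 79. Whether counting used strand, and how reads with several matches were treated, is not given in the sources used here. The labels name polyA RNA, whereas the methods name ribosomal RNA depletion. Replicate numbers and groups came from the sample titles.

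Counts of 18702 genes that passed filterByExpr by group were fitted with edgeR 4.0.16 (quasi-likelihood F-test, TMM, 1 coefficient per group, 12 libraries, limma 3.58.1, R 4.3.3). P-values were adjusted by Benjamini-Hochberg over all genes tested, and genes with an adjusted p under 0.1 whose means differed 1.5-fold or more were called. The fit left 8 residual degrees of freedom, and its common dispersion was 0.100. In a further fit, the mean log CPM of 20 macrophage markers (prior count of 2) was the offset of each library. All CPM are on the TMM scale, and lengths and positions came from GENCODE M21. The main fit was tested on simulated data with known changes, for KO against flox mice under vehicle only. The fits with the macrophage level and the alternatives were not tested in this way. DESeq2 1.42.0 was an alternative, as were other scalings, filters, limits, a replicate block and leaving out each library. Mice with the same number did not vary together (median r of 12 pairs 0.0353, lowest -0.273), so numbers were not taken to pair mice. Symbols were matched for 99.3% of genes, and the rows without one held 0.0688% of counts.

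The members, the gene lists and the tests were chosen with earlier results of these data known. All 44 members may be named, and values per library are given for 13 chosen genes and for those with the highest or lowest log2 fold change. Further genes were chosen after their values were seen (Aurka, Anln and Birc5). The value of 1 gene outside the members is not reported here.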

Additional observations from a re-analysis of the deposited data

How the results depend on the processing

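Against all counts, the median log2 fold change of the 44 genes kept its sign in every comparison. It moved by less than 0.350, the SD between libraries of a group, under each alternative without the macrophage level. Relative to macrophage genes it moved further. Without flox MTX replicate 4 it went from -0.97 to -0.11 under MTX and from -0.57 to -1.39 for MTX in flox mice. For MTX in KO mice it changed sign, from -0.11 to 0.06, without KO MTX replicate 3. With the macrophage level as a covariate the scale stayed that of all counts, so these medians are not ratios to macrophage genes. They went from 1.54 to 0.73 for KO vehicle mice and from 1.07 to 0.58 under MTX. Averaged they went from 1.31 to 0.72, and for MTX in flox mice from 0.74 to 0.29. The count in KO vehicle mice (34) stayed within 23 to 34 over other settings and 26 to 35 when a library was left out. The 23 came with a log2 fold limit of 1.5, where 5.37% of all genes were called higher.

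The count under MTX (0) was 24 where each library had to hold 10 counts or more, 14 with no filter and 34 with DESeq2, and 0 to 26 when a library was left out. The averaged count (40) was 12 with a log2 fold limit of 1.5, where 3.17% of all genes were called higher. The count with MTX in flox mice (17) was 0 with that limit, 8 at an adjusted p limit of 0.05, 7 with library size as the only scaling, 11 with at least 10 counts and 0 with only the libraries of the comparison, and 5 to 24 when a library was left out. Of all genes, 3.13%, 4.83%, 4.10%, 6.74% and 1.5% were called higher under these 5 settings. The interaction count (0) was 0 to 3 when a library was left out. The 3 came without flox vehicle replicate 4, where 5.46% of all genes were called above 0 and 1.60% below.

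Relative to macrophage genes, the count lower in KO vehicle mice (31) was 20 with an offset from 5 genes and 13 to 40 when a library was left out. Under MTX (6) it was 1 to 31 when a library was left out, averaged (37) 27 to 42, and with MTX in flox mice (1) 0 to 37. With the level as a covariate, on the scale of all counts, none of the 44 was called lower in these comparisons. With the covariate 0.0% of all genes were called in the KO comparisons. Of all genes, 92.1% were called lower with the 5 genes, and 90.2% and 96.2% where the count was 13 and 40. The shares were 43.9% and 84.5% where it was 1 and 31 under MTX. They were 93.5% and 94.2% where it was 27 and 42, and 91.4% where it was 37. The causes were not tested.

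With the replicate number as a block, the counts were 32 in KO vehicle mice, 0 under MTX, 36 averaged, 10 with MTX in flox mice and 0 for MTX in KO mice and for the interaction. Of all genes, 11.1%, 0.0%, 10.4% and 3.06% were called higher in the first 4 comparisons. Relative to macrophage genes the replicate block gave 10, 1, 18 and 0 for these first 4 comparisons. Of all genes, 88.1%, 65.9%, 92.1% and 16.0% were called lower there. The numbers name mice and were not found to pair them.

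With 3 mice per group an exact permutation test cannot go below p = 0.1, and the depth gives Cdc25c as few as 3 counts in a library.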
